A study of Mus musculus with 14 samples.

Results

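The genes described here are 10 members of the growth hormone pathway of the liver: the receptor, kinase and transcription factor genes Ghr, Jak2, Stat5a and Stat5b, the feedback inhibitor genes Cish, Socs1, Socs2 and Socs3, and the output genes Igf1 and Igfals. They were chosen by name, with the measured difference between the groups in these same libraries already known, and each gene's level is the sum of the estimated counts over its transcripts. They are 10 of 24983 genes with a count in at least 1 library, and all 10 are among the 13131 genes that were tested after a filter on low counts. Because that contrast helped to choose them, the members' differences between groups are given as a description, with a standard error and no p-value. The standard error is the absolute log2 fold change divided by the square root of the F statistic of edgeR's quasi-likelihood test. Fold change and standard error together therefore restate that test. Where a member is said to pass a threshold, also in refits of these same libraries, this is part of that description and not independent evidence.

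Growth hormone is released by the pituitary in pulses and binds its receptor on hepatocytes, which activates the kinase JAK2 bound to the receptor's inner part. JAK2 phosphorylates STAT5A and STAT5B, which enter the nucleus and switch on genes such as Igf1, Igfals, Cish and Socs2. CISH and the SOCS proteins then bind the active receptor complex and shut the signal off, so that their transcripts follow recent signalling, while the IGF1 and the acid-labile subunit made by the liver circulate in blood and carry part of the hormone's action on growth.

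RNA was sequenced from the livers of mice kept on a high-fat diet. The transplant group (n = 6, titled iBAT 2x) had received differentiated pre-adipocytes, grown from the stromal fraction of brown fat, on a silk scaffold, and the empty scaffold group (n = 8, titled Sham-WT) had received the scaffold alone. The sources used here do not give what 2x and WT stand for, nor the strain, age or sex of the mice, nor state that every sample was a separate animal, so the errors cover the spread between these samples. The study asked what such a transplant changes in metabolism, the liver included.

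Total estimated counts ran from 22898793 to 28910968 per transplant library and from 19482580 to 28723928 per empty scaffold library. The sample titles carry numbers of unstated meaning in 2 ranges: 3 transplant and 4 empty scaffold libraries are numbered 100 or above (replicates 1 to 3 and 1 to 4), and 3 and 4 are numbered below 100 (replicates 4 to 6 and 5 to 8). The 4 empty scaffold libraries numbered 100 or above stood apart, with long transcripts counted more strongly than in other libraries: the slope of log2 level on a doubling of transcript length was 0.19 to 0.24 there, against -0.26 to 0.03 in the 10 other libraries. The contrast of transplant with empty scaffold is therefore given over all libraries, within each range, and with length and GC trends removed. Albumin transcripts (Alb), which mark hepatocytes, stood at 73340 ± 13728 CPM in transplant and 66349 ± 13315 CPM in empty scaffold libraries (SD, n = 6 and 8), where CPM is a gene's count as a scaled share of the TMM-normalised library.

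The sequences that follow are the letters STAT5 proteins are known to bind, where they occur near the start sites of these genes. STAT dimers recognise the palindrome TTCNNNGAA, which reads the same on both strands. It was searched for in RefSeq promoter windows of 300 bases, from 250 bases before to 50 bases after each annotated start (build GRCm38.p6). Of the 10 genes, 9 had at least 1 window, and Socs2 had none in the table. The palindrome was found in 4 of their 14 windows, belonging to Cish, Igfals and Socs3, while 8.3% of all 32851 windows and 9.55% of 27025 genes held it. Cish alone of the 9 had 2 copies in 1 window, and 150 of all windows (0.457%) had 2 or more. The first Cish copy begins at the RefSeq start (position 1) and the second at position 12. The annotation used for the counts, GENCODE M21, gives other Cish starts, so these positions depend on the annotation. The whole Cish window is printed because this gene had the largest difference between groups of the 10, with the palindromes in capitals (chr9:107296409-107296708, plus strand).
Cish: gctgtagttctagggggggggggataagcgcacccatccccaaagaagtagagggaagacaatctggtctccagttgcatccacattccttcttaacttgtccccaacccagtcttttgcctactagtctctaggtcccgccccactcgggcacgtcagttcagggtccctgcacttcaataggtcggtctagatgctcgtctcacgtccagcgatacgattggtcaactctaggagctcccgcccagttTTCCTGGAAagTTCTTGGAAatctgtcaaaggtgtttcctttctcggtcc

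The single copies near 2 annotated Igfals starts and near the Socs3 start are shown with 10 bases on either side, for comparison with the Cish pair. They begin at positions -236 (chr17:24877598-24877626, plus strand), -58 (chr17:24878163-24878191, plus strand) and -154 (chr11:117969502-117969530, minus strand) from their starts.
Igfals, upstream start: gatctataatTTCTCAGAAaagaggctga
Igfals, middle start: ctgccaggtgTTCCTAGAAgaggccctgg
Socs3: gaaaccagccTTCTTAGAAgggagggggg

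No palindrome was found in the windows of Ghr, Jak2, Stat5a, Stat5b, Socs1 or Igf1, which says only that these letters are absent from those windows. A match is a description of the letters, and binding was not measured.

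The feedback genes Cish and Socs2 stood higher in livers of transplant recipients than in livers of empty scaffold recipients, at log2 fold changes of 2.02 ± 0.47 and 1.38 ± 0.29 (SE). The outputs Igf1 and Igfals stood 0.42 ± 0.13 and 0.45 ± 0.16 higher. The receptor gene Ghr stood at 0.17 ± 0.09, and the signalling genes Jak2, Stat5a and Stat5b at -0.24 ± 0.12, -0.28 ± 0.13 and -0.30 ± 0.12. Of the 10 genes, Cish and Socs2 passed edgeR's quasi-likelihood test at a Benjamini-Hochberg adjusted p under 0.05, where 7.54% of all tested genes passed, 3.31% higher and 4.23% lower. With length and GC trends removed those 2 passed again, where 3.88% of all genes did. In every gene the values of the groups overlapped over the 14 libraries, while in 1.27% of all tested genes they did not. Less RNA per cell and fewer cells of a type cannot be told apart in these whole-tissue libraries.

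**Figure D1:**
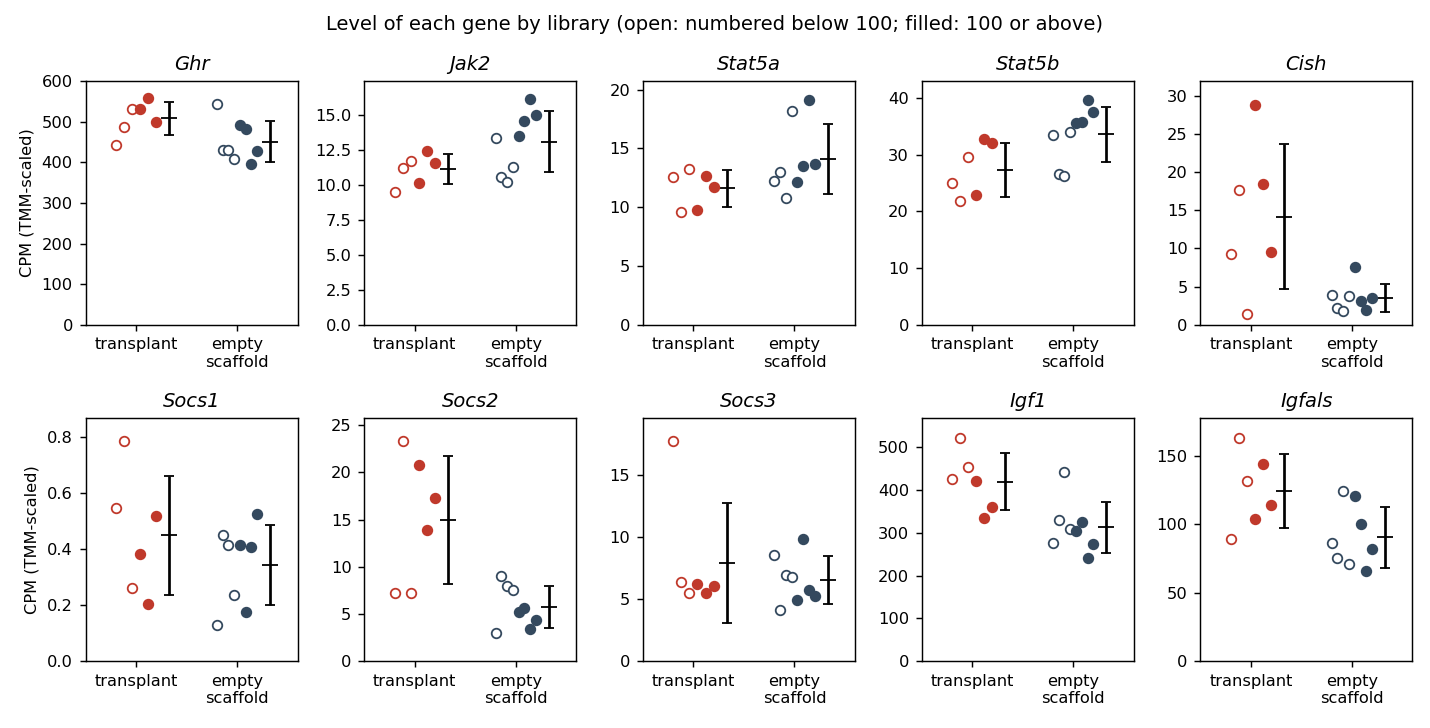
TMM-scaled CPM of each of the 10 genes in each library, transplant (red, n = 6) left of empty scaffold (blue, n = 8), with the mean and SD as a bar beside the points, filled points for libraries numbered 100 or above and open points for those below 100. In Cish, 5 of 6 transplant libraries lie above every empty scaffold library, and in Socs2 4 of 6 do, while the groups overlap in each of the 10 genes.

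Ghr (ENSMUSG00000055737, chromosome 15), which encodes the receptor, stood at 443, 516 and 559 CPM (lowest, median and highest) in transplant libraries and at 395, 432 and 543 CPM in empty scaffold libraries. All 6 transplant libraries lay above the empty scaffold median, and 1 lay above every empty scaffold library. The log2 fold change was 0.24 ± 0.12 at 100 or above and 0.11 ± 0.14 below 100, and it ran from 0.15 to 0.21 when each library was left out in turn.

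Mouse Ghr makes a full-length receptor and, by another last coding exon, a shorter form without the membrane anchor that is secreted as growth hormone binding protein. Both were abundant, so the junction where they part is shown, with 20 shared bases in lower case and the following 60 bases of each transcript in capitals (GRCm38, minus strand, the capitals at chr15:3325929-3325988 for Ghr-201 and chr15:3327627-3327686 for Ghr-203). In Ghr-201 the reading frame has 650 codons, and in Ghr-203 it has 297.
Ghr-201: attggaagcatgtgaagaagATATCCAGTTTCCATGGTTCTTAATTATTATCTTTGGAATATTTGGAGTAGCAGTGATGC
Ghr-203: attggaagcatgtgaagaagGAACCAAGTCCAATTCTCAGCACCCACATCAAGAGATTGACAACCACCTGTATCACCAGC

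Ghr-203 held 27.5% to 34.7% of the gene's estimated counts in transplant libraries (31.8 ± 2.5%, SD, n = 6) and 26.4% to 36.5% in empty scaffold libraries (30.0 ± 3.4%, SD, n = 8). Ghr-201 held 65.5 ± 2.1% in transplant and 67.5 ± 3.0% in empty scaffold libraries. The means of either form differed by less than the spread within the groups. Per length the shorter form was the more abundant, with 63.2 ± 4.1% of the gene's TPM (the deposited level divided by transcript length) in transplant and 61.2 ± 4.8% in empty scaffold libraries.

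**Figure D2:**
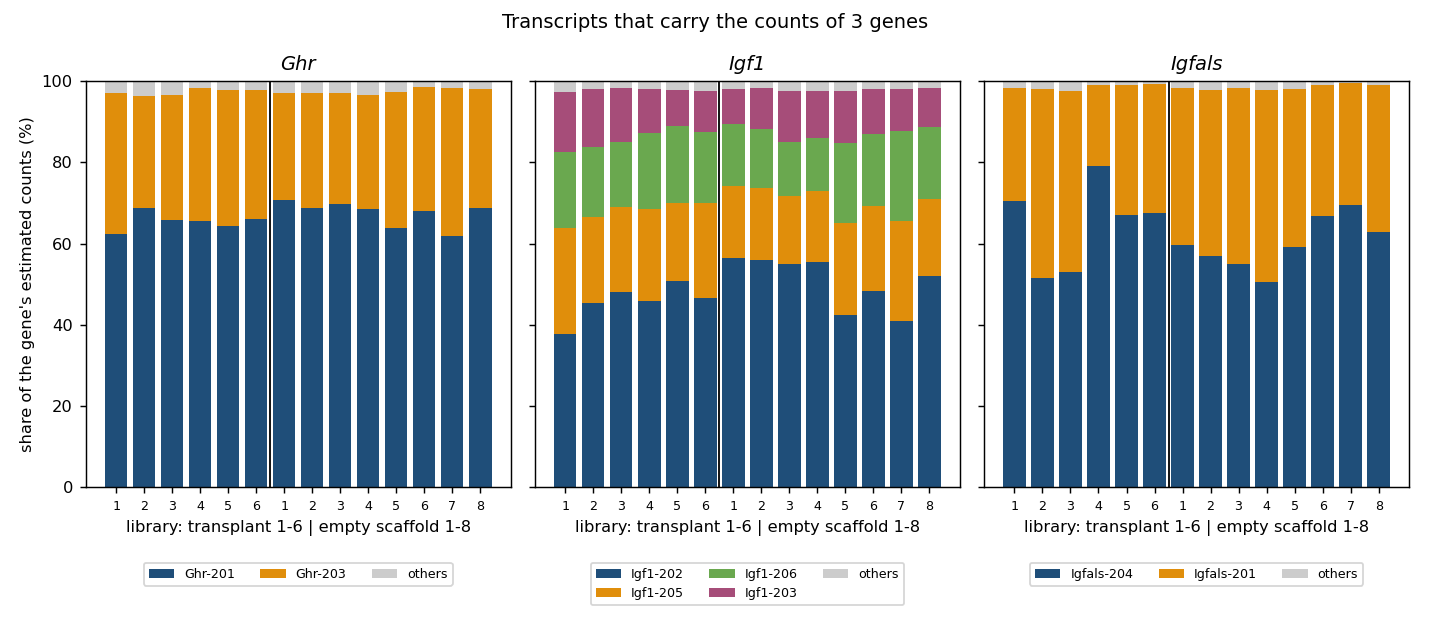
Share of each gene's estimated counts (percent, y axis) by transcript for Ghr, Igf1 and Igfals in each library, 6 transplant libraries left of the line and 8 empty scaffold libraries right of it. Ghr-203, the secreted form, takes 26.4% to 36.5% of Ghr counts in all 14 libraries, and Igf1-202 takes 54.9% to 56.4% in empty scaffold libraries 1 to 4, above every other library.

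Jak2 (ENSMUSG00000024789, chromosome 19), the kinase bound to the receptor, stood at 9.52, 11.4 and 12.4 CPM in transplant libraries and at 10.2, 13.4 and 16.1 CPM in empty scaffold libraries (lowest, median and highest). All 6 transplant libraries lay below the empty scaffold median. The highest values were those of the empty scaffold libraries numbered 100 or above, at 13.5 to 16.1 CPM. The log2 fold change was -0.38 ± 0.11 in that range, -0.07 ± 0.14 below 100 and -0.05 ± 0.07 once the length and GC trends were taken out.

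Stat5a and Stat5b (ENSMUSG00000004043 and ENSMUSG00000020919, both on chromosome 11) encode the transcription factors that JAK2 activates. Stat5a stood at 9.61, 12.1 and 13.3 CPM in transplant libraries and at 10.8, 13.3 and 19.1 CPM in empty scaffold libraries. Stat5b, the more abundant of the pair, stood at 21.8, 27.3 and 32.8 CPM in transplant libraries and at 26.3, 34.7 and 39.7 CPM in empty scaffold libraries. For Stat5b, 6 of 6 transplant libraries lay below the empty scaffold median, and for Stat5a 5 of 6 did. With length and GC trends removed the log2 fold changes were -0.04 ± 0.11 for Stat5a and 0.01 ± 0.08 for Stat5b, so the small negative values of both, and of Jak2, lay near 0 in that fit. With the number range as a covariate instead, Stat5b was called lower in edgeR's quasi-likelihood test (-0.30 ± 0.10), as 19.6% of all genes were called in either direction. The mean lengths of the transcripts are 5078 bases for Stat5b, 4899 for Jak2 and 3726 for Stat5a.

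How the counts of Jak2, Stat5a and Socs1 divide among their transcripts is uncertain. The 2 main transcripts of each have reading frames of 1 length (1132 codons in Jak2, 793 in Stat5a and 212 in Socs1), and the counts swung between them from library to library. The share of Jak2-202 ran from 0.0% to 94.0% in transplant libraries and from 0.0% to 92.5% in empty scaffold libraries. The sums per gene do not depend on this division.

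Cish (ENSMUSG00000032578, chromosome 9) encodes an inhibitor that STAT5 induces and that blocks STAT5 docking at the receptor. It stood at 1.40, 13.6 and 28.8 CPM in transplant libraries and at 1.83, 3.28 and 7.58 CPM in empty scaffold libraries. The group means were 14.2 ± 9.51 CPM in transplant and 3.48 ± 1.85 CPM in empty scaffold libraries (SD), a ratio of 4.07. The spread in the transplant group was wide: 5 libraries lay above every empty scaffold library and 1, replicate 6, lay below every one of them. The estimated counts behind these levels were 31 to 755 per library.

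At 100 or above, Cish stood at 28.8, 18.4 and 9.56 CPM in the 3 transplant libraries and at 7.58, 3.06, 1.93 and 3.50 CPM in the 4 empty scaffold libraries, without overlap. Below 100 it stood at 9.27, 17.6 and 1.40 CPM in transplant and at 3.93, 2.26, 1.83 and 3.76 CPM in empty scaffold libraries. The log2 fold change was 2.24 ± 0.50 in the first range and 1.68 ± 0.78 in the second, and 2.24 ± 0.51 with trends removed. Cish missed an adjusted p under 0.05 in edgeR's quasi-likelihood test without transplant replicate 1 or 5 or empty scaffold replicate 3, 4 or 8. In those fits 138, 200, 263, 240 and 296 of all genes passed, in that order, against 990 over all libraries. The Cish fold change ran from 1.68 to 2.29 over the 14 fits that each left out 1 library. Without the filter on low counts Cish was also above that threshold, and 670 genes passed. In the libraries numbered below 100 alone, every one of the 10 genes was above it, where 0.0231% of all genes tested there passed.

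Socs2 (ENSMUSG00000020027, chromosome 10) encodes the inhibitor whose loss in mice leads to overgrowth, and which helps degrade the receptor. It stood at 7.19, 15.6 and 23.3 CPM in transplant libraries and at 3.02, 5.41 and 9.02 CPM in empty scaffold libraries. The means were 15.0 ± 6.78 CPM in transplant and 5.78 ± 2.20 CPM in empty scaffold libraries (SD), a ratio of 2.59. Of the transplant libraries, 6 of 6 lay above the empty scaffold median and 4 above the highest empty scaffold library.

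At 100 or above, Socs2 stood at 20.8, 13.9 and 17.2 CPM in transplant and at 5.19, 5.63, 3.42 and 4.40 CPM in empty scaffold libraries. Below 100 it stood at 7.19, 23.3 and 7.25 CPM in transplant and at 3.02, 9.02, 7.92 and 7.60 CPM in empty scaffold libraries. The groups did not overlap in the first range and overlapped in the second, where 1 transplant library carried the higher mean. The log2 fold changes were 1.90 ± 0.19 and 0.86 ± 0.55. Leaving out each library in turn, Socs2 stayed past the threshold in 13 of 14 fits (1.20 to 1.51). It missed the threshold without transplant replicate 1, where 138 genes passed, against 990 over all libraries.

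The other feedback genes did not stand out between groups. Socs3 (ENSMUSG00000053113, chromosome 11), the inhibitor best known for limiting cytokine signals through gp130, stood at 5.51, 6.17 and 17.8 CPM in transplant libraries and at 4.16, 6.28 and 9.86 CPM in empty scaffold libraries. Its log2 fold change of 0.27 ± 0.27 rested on transplant replicate 4, the library with 17.8 CPM, and was -0.14 without it. It was -0.12 ± 0.23 in the libraries numbered 100 or above, 0.58 ± 0.45 below 100 and 0.38 ± 0.28 with trends removed. Socs1 (ENSMUSG00000038037, chromosome 16), an inhibitor of JAK kinases, was near the limit of detection, with 3 to 18 estimated counts per library. It stood at 0.204, 0.449 and 0.787 CPM in transplant and at 0.130, 0.410 and 0.527 CPM in empty scaffold libraries, a log2 fold change of 0.37 ± 0.35 that was -0.07 ± 0.47 at 100 or above, 0.83 ± 0.53 below 100 and 0.55 ± 0.35 with trends removed.

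Igf1 (ENSMUSG00000020053, chromosome 10), the growth factor that the liver secretes under growth hormone, stood at 334, 423 and 521 CPM in transplant libraries and at 241, 306 and 442 CPM in empty scaffold libraries. All 6 transplant libraries lay above the empty scaffold median and 2 above the highest empty scaffold library. The log2 fold change was 0.38 ± 0.14 at 100 or above, 0.46 ± 0.17 below 100 and 0.51 ± 0.18 with trends removed. It passed the adjusted threshold of 0.05 in DESeq2, in which 13.5% of all genes passed, in edgeR's quasi-likelihood test with the number range as a covariate, in which 19.6% did, and in 2 of 14 leave-one-out fits, those that each drop a single library.

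Igf1-202, the longest Igf1 transcript at 7052 bases, held 37.8% to 50.8% of the gene's counts in transplant libraries and 41.1% to 56.4% in empty scaffold libraries. Its share was 54.9% to 56.4% in the 4 empty scaffold libraries numbered 100 or above, where long transcripts were counted more strongly, and 41.1% to 52.1% in the other 4. Per length the short transcripts Igf1-206 and Igf1-205 led, with 45.4 ± 3.0% and 37.5 ± 2.2% of the gene's TPM in transplant libraries and 45.3 ± 4.2% and 35.6 ± 1.0% in empty scaffold libraries.

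Igfals (ENSMUSG00000046070, chromosome 17) encodes the acid-labile subunit, which holds IGF1 in a long-lived complex in blood. It stood at 89.1, 123 and 163 CPM in transplant libraries and at 66.1, 84.2 and 124 CPM in empty scaffold libraries. All 6 transplant libraries lay above the empty scaffold median and 3 above the highest empty scaffold library, and the log2 fold change was 0.39 ± 0.19 at 100 or above and 0.52 ± 0.24 below 100. The transcript Igfals-204, for which no reading frame is annotated, held 64.7 ± 10.6% of the gene's counts in transplant and 60.0 ± 6.2% in empty scaffold libraries, and Igfals-201, with 603 codons, held 33.8 ± 10.2% in transplant and 38.5 ± 5.6% in empty scaffold libraries.

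**Figure D3:**
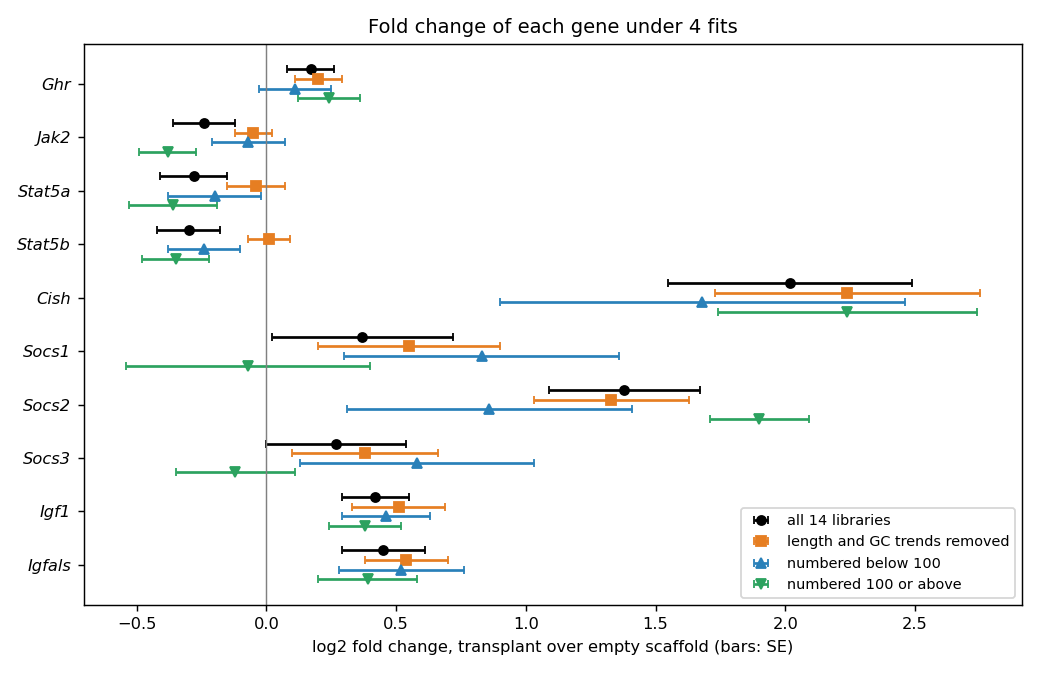
Log2 fold change (x axis, transplant over empty scaffold, bars the SE) of each of the 10 genes over all 14 libraries, with length and GC trends removed, and within each number range. Cish, Socs2, Igf1, Igfals and Ghr lie right of 0 in each of the 4 fits, Jak2, Stat5a and Stat5b move to between -0.05 and 0.01 with trends removed, and Socs1 and Socs3 lie at -0.07 and -0.12 in libraries numbered 100 or above.

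Within the libraries numbered 100 or above, the groups did not overlap in 6 of the 10 genes: Ghr, Cish, Socs2 and Igf1 were higher and Jak2 and Stat5b lower in transplant libraries. In that range 39.0% of all tested genes did not overlap, 21.1% higher and 17.9% lower. Below 100 the groups overlapped in all 10 genes, while 8.87% of all tested genes did not overlap. The members that passed edgeR's quasi-likelihood test at 100 or above were Jak2, Cish and Socs2, where 26.0% of all genes tested there passed.

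Deposited TPM values, which are not scaled between libraries, moved the median difference of all tested genes to -0.43 on the log2 scale, against -0.02 for scaled counts. Relative to that median, the TPM differences were 0.23 for Ghr, 1.45 for Cish, 1.28 for Socs2, 0.37 for Socs1, 0.24 for Socs3, 0.57 for Igf1 and 0.45 for Igfals, and -0.22 for Jak2, -0.31 for Stat5a and -0.34 for Stat5b. As deposited, those of Ghr (-0.21), Socs1 (-0.06) and Socs3 (-0.19) had the other sign from scaled counts. On that scale Igf1 stood at 0.13, Igfals at 0.02, Cish at 1.02 and Socs2 at 0.85. Jak2, Stat5a and Stat5b stood at -0.66, -0.75 and -0.78. TPM entered no test here.

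Per length, Igf1 led the 10 genes with a mean of 384 TPM over all libraries, before Ghr (304 TPM) and Igfals (45.5 TPM). Igf1 was above Ghr in 6 of 6 transplant libraries and in 4 of 8 empty scaffold libraries, so these neighbours did not keep their order. Ghr was above Igfals, and Igfals above Stat5b (6.14 TPM), in all 14 libraries and without overlap. The genes from Stat5b through Socs2 (5.14), Stat5a (3.97), Jak2 (3.20) and Socs3 (3.08) to Cish (2.24 TPM) overlapped with their neighbours. Socs2 was above Stat5a in 6 of 6 transplant libraries and in 2 of 8 empty scaffold libraries. Socs1, at 0.116 TPM, was the lowest of the 10 in each library.

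The contrast of the number ranges was not used to choose the genes and was therefore tested. Of all genes, 23.4% differed between libraries numbered 100 or above and below 100, with the group in the model, by edgeR's quasi-likelihood test, and none of the 10 did. In DESeq2, where 24.7% differed, Igf1 did. In edgeR 3 of the 10 had an unadjusted p under 0.05: Jak2 (0.25 ± 0.09, adjusted p = 0.0644), Stat5b (0.26 ± 0.10, adjusted p = 0.0688) and Igf1 (-0.28 ± 0.11, adjusted p = 0.0721). Once the length and GC trends were removed, Jak2 and Stat5b stood at 0.01 ± 0.07 and 0.10 ± 0.08, and Igf1 passed at -0.49 ± 0.14 (adjusted p = 0.0291), where 12.0% of all genes passed. Igf1 stood at 372 ± 44.8 CPM (SD, n = 3) in transplant libraries numbered 100 or above and at 466 ± 49.9 CPM (SD, n = 3) in those below 100. In empty scaffold libraries it stood at 285 ± 36.6 CPM (SD, n = 4) at 100 or above and at 339 ± 72.5 CPM (SD, n = 4) below 100.

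Whether the difference between transplant and empty scaffold was itself unlike in the 2 ranges was tested as an interaction. None of the 10 genes passed in edgeR or DESeq2 or had an unadjusted p under 0.05 in edgeR, with edgeR's quasi-likelihood adjusted p-values from 0.375 for Jak2 to 0.885 for Igf1. The estimate for Socs2 was 1.02 ± 0.62 (adjusted p = 0.411) and that for Cish 0.56 ± 0.97 (adjusted p = 0.805). No gene of the 13131 passed this test in edgeR, where 17.3% had an unadjusted p under 0.05, and 184 passed in DESeq2. With standard errors this wide, a difference between ranges in the size of the Cish or Socs2 change was not detectable, which does not show that there was none.

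Within groups, 13 pairs of genes were compared for covariation over the 14 libraries, on log2 CPM with 0.5 added, centred on each group's mean. Stat5b and Igf1 passed, with a Pearson r of -0.80 (permutation p = 0.000520, adjusted over the 13 pairs p = 0.00676) and a Spearman rho of -0.78 (permutation p = 0.00268, adjusted p = 0.0348). With levels centred again on the group means within each range, the r was -0.78 in the 7 libraries at 100 or above. It was -0.70 in the 7 below 100. After the length and GC trends were removed, the r over the 14 libraries was -0.72 (permutation adjusted p = 0.0469). Without the 2 libraries farthest from the median of Stat5b it was -0.77 over 12 libraries, with an adjusted permutation p of 0.0506.

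**Figure D4:**
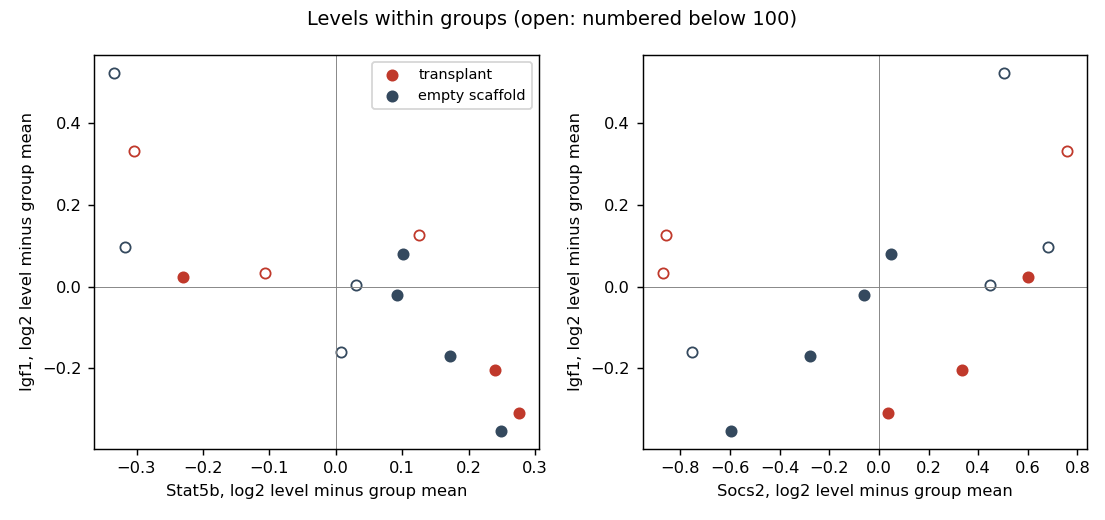
Log2 CPM of Igf1 (y axis) against Stat5b (left) and Socs2 (right), each minus its group's mean, for 6 transplant (red) and 8 empty scaffold (blue) libraries, open where numbered below 100. The points fall from upper left to lower right for Stat5b (r = -0.80), and for Socs2 they rise loosely (r = 0.42 over all 14).

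The other 12 pairs did not pass. Socs2 and Igf1 had an r of 0.42 (permutation p = 0.144, adjusted p = 0.375) and a rho of 0.38 (permutation adjusted p = 0.668). With levels centred again on the group means within each range, that pair had an r of 0.99 in the 7 libraries at 100 or above. It was 0.65 in the 7 below 100, and 0.69 over all 14 libraries centred in this way (permutation adjusted p = 0.0870). Cish and Socs2, the feedback genes that differ between groups, had an r of 0.44 (permutation adjusted p = 0.393), and Cish and Igf1 had -0.18 (permutation adjusted p = 0.783). Slco1a1, a male-biased target of the pathway, did not follow Cish (r = -0.08), Socs2 (-0.08) or Igf1 (-0.12) within groups, each with an adjusted permutation p of 0.783.

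The genes most like 4 of the members, among 10989 named genes averaging 1 CPM or more, were taken by Pearson r of group-centred log2 CPM over the 14 libraries. For Ghr they were Sephs2 (0.94), which makes the selenium donor for selenoproteins, Ggt6 (0.89) and the adiponectin receptor gene Adipor1 (0.89). For Cish they were Resf1 (0.93), the hepatocyte transcription factor gene Foxa2 (0.92) and the splicing factor gene Isy1 (0.84). For Socs2 they were Plin5 (0.84), which coats lipid droplets, Ppid (0.80) and Nlrp12 (0.78), and for Igf1 they were Ufd1 (0.93), Ddx49 (0.93) and Rnasek (0.92). These are the highest of many correlations over libraries that share length and GC trends, so they describe these libraries. Among the 12, Nlrp12 passed edgeR's quasi-likelihood test between groups (0.95 ± 0.18, adjusted p = 0.0144), at 73.9 CPM in transplant and 38.2 CPM in empty scaffold libraries.

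Other genes of the pathway were grouped in lists. All lists were chosen with earlier results of these data known, and called genes are named by smallest p. Their calls and p-values are therefore a description and not independent evidence. Each count of calls stands beside the 7.54% of all tested genes that passed, 3.31% higher and 4.23% lower. With trends removed 3.88% passed. In the list of growth hormone dependent genes with higher expression in male liver, 12 of 23 tested members rose and none fell in transplant livers by edgeR's quasi-likelihood test, and the median log2 fold change was 0.77, against -0.02 for all tested genes. Serpina3k, a serine protease inhibitor, stood at 6057 ± 893 CPM in transplant and 2859 ± 600.1 CPM in empty scaffold libraries (1.08 ± 0.14, adjusted p = 0.00804). The steroid dehydrogenase gene Hsd3b5 rose by 4.76 ± 0.68, the anion transporter gene Slco1a1 by 2.41 ± 0.39, and Mup1, a major urinary protein gene, by 2.55 ± 0.45, though reads of the near-identical Mup genes can be split between them. All 4 stayed past the threshold in 14 of 14 leave-one-out fits, while no member of the list passed in libraries numbered below 100 alone. Bcl6, a repressor that binds many STAT5 sites and is itself repressed by growth hormone, did not pass, at -0.64 ± 0.58 (adjusted p = 0.473), and is named after its value was seen. The list was known from earlier results to stand higher in these data, so it is not independent evidence.

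In the list of female-biased liver genes, 1 of 14 tested members passed and the median was 0.05 (-0.08 with trends removed). With trends removed 1 member was called higher and 1 lower. Cyp2a4, a steroid hydroxylase gene, fell to 3.69 ± 1.83 CPM in transplant livers, against 10.7 ± 5.43 CPM in empty scaffold livers (-1.54 ± 0.37, edgeR's quasi-likelihood adjusted p = 0.0298). It missed the threshold without transplant replicate 1 or empty scaffold replicate 4 or 8, where 138, 240 and 296 genes passed. A further 9 listed genes were too low to test.

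Among 11 tested genes around IGF1, which are receptors, binding proteins, the ligand gene Igf2 and the protease gene Htra1, 1 was higher, none was lower, and the median was -0.24. With trends removed 2 were higher and the median turned to 0.09. Igfbp2, an IGF binding protein secreted by hepatocytes, stood at 426 ± 119 CPM in transplant and 206 ± 74.6 CPM in empty scaffold libraries, a log2 fold change of 1.05 ± 0.22 (edgeR's quasi-likelihood adjusted p = 0.0175) that stayed past the threshold without any one library. Igfbp3, which joins IGF1 and the acid-labile subunit in the circulating complex, did not pass, at -0.55 ± 0.18 (adjusted p = 0.0694), and is named after its value was seen.

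**Figure D5:**
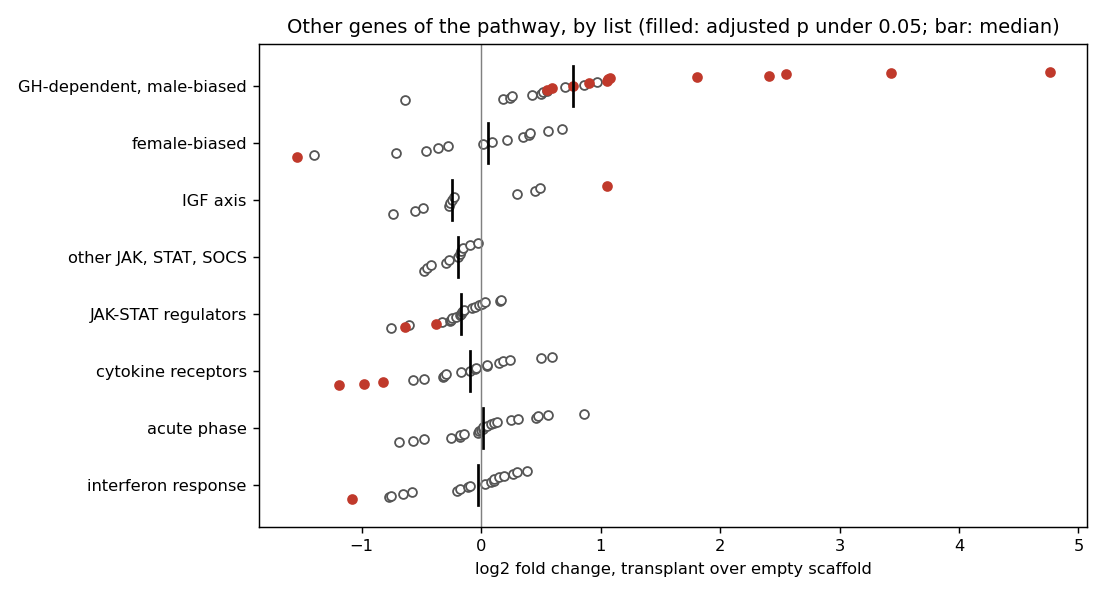
Log2 fold change (x axis, transplant over empty scaffold) of every tested gene of 8 lists, filled red where edgeR's adjusted p is under 0.05, with each list's median as a bar. The male-biased list has 12 filled points, all right of 0, and a median of 0.77, and the other 7 medians lie between -0.24 and 0.05.

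The remaining kinases, STATs and SOCS genes did not pass: none of 11 tested members was called in edgeR (4 had an unadjusted p under 0.05, and Jak3 and Socs5 passed in DESeq2), and all 11 estimates were negative, with a median of -0.19. With length and GC trends removed the median was 0.00. Stat3, which carries interleukin-6 signals, stood at 62.8 ± 11.8 CPM in transplant and 83.8 ± 17.8 CPM in empty scaffold libraries (-0.42 ± 0.15). Among 21 adaptors, phosphatases and other regulators, 2 were lower, none was higher, and the median was -0.17 (0.02 with trends removed). These were the ubiquitin ligase gene Cbl (-0.64 ± 0.17) and Irs1 (-0.38 ± 0.09), an adaptor of the insulin receptor. Cbl passed in 5 and Irs1 in 12 of 14 leave-one-out fits. Irs1 missed without transplant replicate 1 or 5, where 138 and 200 genes passed. With trends removed neither passed edgeR's quasi-likelihood test (-0.30, adjusted p = 0.118, and -0.04, adjusted p = 0.873).

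Of 19 tested genes for other cytokine receptors, 3 were lower, none was higher, and the median was -0.09. The 3 were Csf2rb (-0.82 ± 0.15), Il2rg (-0.98 ± 0.26) and Csf3r (-1.19 ± 0.32), receptor subunits of blood cells, and they stayed past the threshold in 14, 6 and 5 of 14 leave-one-out fits. With trends removed the median turned to 0.09, Csf3r was lost (-1.02, edgeR's quasi-likelihood adjusted p = 0.0717), and Lifr, which encodes the receptor for leukaemia inhibitory factor and is named after its value was seen, was called higher (0.83, adjusted p = 0.0202). Markers of Kupffer cells, of sinusoidal endothelium, and of stellate cells and fibroblasts were mostly lower as well. No tested cholangiocyte, T and NK cell, B and plasma cell, erythroid or adipocyte marker was called. Their medians were -0.14, 0.06, -0.38, 0.31 and -0.64, in that order. The listed markers that could be tested were 6 of 6, 4 of 8, 3 of 6, 5 of 5 and 2 of 6. The adipocyte median rests on Cfd (0.10 ± 0.43) and Cidea (-1.38 ± 0.86) alone. Of 2 tested neutrophil markers, only Csf3r itself was called. The 12 Kupffer cell markers summed to 159 to 241 CPM in transplant and 203 to 480 CPM in empty scaffold libraries, with all 12 estimates negative and 5 past the test. The 10 sinusoidal endothelium markers summed to 99.8 to 147 CPM in transplant and 122 to 210 CPM in empty scaffold libraries (2 lower), and the 10 stellate cell and fibroblast markers to 132 to 244 CPM in transplant and 159 to 340 CPM in empty scaffold libraries (3 lower). With trends removed 6 Kupffer cell markers were called lower, and none of the endothelial or stellate cell markers was called, with medians of -0.19 and -0.31, against -0.38 and -0.65 before. None of these markers was at 0 in every library, and none of the 9 tested hepatocyte markers passed in edgeR (median 0.28; 3 had an unadjusted p under 0.05, and Cyp2e1 passed in DESeq2). The part of cell composition in these results, and in those of the 10 genes, was not tested.

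Lists of acute-phase and interferon-responsive genes gave 0 and 1 calls in edgeR, where 7.54% of all tested genes were called. None of 22 acute-phase genes, which STAT3 drives, was called in edgeR or DESeq2 (5 had an unadjusted p under 0.05 in edgeR), with a median of 0.02 (-0.05 with trends removed): haptoglobin (Hp) stood at 6069 ± 1322 CPM in transplant and 5981 ± 1738 CPM in empty scaffold libraries, and the fibrinogen gene Fgb at 4169 ± 606 CPM in transplant and 4028 ± 1079 CPM in empty scaffold libraries. Of 18 interferon-responsive genes, 1 was lower, with a list median of -0.03. Ciita, the activator of MHC class II genes, stood at 0.715 ± 0.192 CPM in transplant and 1.50 ± 0.819 CPM in empty scaffold libraries (-1.08 ± 0.32, edgeR's quasi-likelihood adjusted p = 0.0487), and passed in 4 of 14 leave-one-out fits.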

How the data were processed

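RNA-seq of 14 mouse liver samples was analysed. Per the labels' protocols, stranded mRNA libraries were made from 200 ng of total RNA. The submitters' processing notes name fastp 0.20, kallisto 0.46.1, DESeq2 1.38 and the build GRCm39, and give neither settings nor an annotation release. The authors deposited, per the file headers, an estimated count (kallisto's expected count, not normalized), a TPM and an effective length in bases for each of 128803 transcripts.

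Transcripts were matched to GENCODE M21 (GRCm38, not the submitters' build), 93.7% of them, holding 99.4% to 99.5% of each library's estimated counts. Estimated counts were summed per gene and rounded. edgeR 4.0.16 (R 4.3.3) filtered genes (filterByExpr), scaled libraries (TMM) and fitted the robust quasi-likelihood model with group as the only term, two-sided; p-values were Benjamini-Hochberg adjusted over all tested genes and called under 0.05. DESeq2 1.42.0 was an alternative. Length and GC trends were removed per library with natural splines of 4 degrees of freedom. Correlations used 100000 permutations within groups. Scripts were tested on simulated data.

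The 10 genes and all lists were chosen with earlier results of these data known. Besides the 10 genes, the text names up to 4 called genes per list by smallest p (with none called, the 2 most abundant) and the 3 genes most like Ghr, Cish, Socs2 and Igf1. One gene that this rule names is not reported here. Replicate numbers follow accession order and pair no samples. Libraries of 1 group differed beyond counting noise, so none was counted as a repeat. Leaving out each library in turn, other scalings, filters and subsets were tried. TPM keep no depth and entered no test. Precision at low counts is limited by counting error, as for Socs1.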

Additional observations from a re-analysis of the deposited data

Results flagged for a closer look

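A single library stood far from the rest of its group in 3 of 20 gene and group combinations examined, where chance flags about 1 in 20. The combinations share the same 14 libraries, so they are not independent. Socs3 reached 17.8 CPM in transplant replicate 4, and its gap to the next library was 0.925 of the group's range. Cish reached 7.58 CPM in empty scaffold replicate 1 (0.635 of the range). Igf1 reached 442 CPM in empty scaffold replicate 7 (0.562 of the range).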

How the results depend on the processing

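The number of genes called between groups (990) was 1940 in DESeq2, 2576 with the number range as a covariate, 3 below 100, 3487 at 100 or above, 316 with an effective-length offset, 509 with length and GC trends removed, 553 with protein-coding transcripts only, and 138 (without transplant replicate 1) to 1910 (without empty scaffold replicate 7) when each library was left out in turn. The range contrast (3075) gave 1572 with trends removed (chosen after seeing the data, as was TPM) and 2086 to 4617 without single libraries. The interaction (0) gave 8 without a filter, 184 in DESeq2 and 0 to 7 without single libraries. Calls per list moved as follows. Other JAK, STAT and SOCS genes (0) gave 2, 2 and 3 in DESeq2, with the covariate and at 100 or above. Regulators (2) gave 4 with the covariate, 0 below 100, 7 at 100 or above, 0 with trends removed, and 1 without a filter or with the length offset. Cytokine receptors (3) gave 7 with the covariate, 0 below 100, 5 at 100 or above, 1 with the offset, and 3 with trends removed, of which 1 was higher. Male-biased genes (12) gave 0 below 100. Female-biased genes (1) gave 0 without a filter, 3 in DESeq2, 3 with the covariate, 0 below 100, 4 at 100 or above and 2 with trends removed, of which 1 was higher. The IGF axis (1) gave 3 in DESeq2, 3 with the covariate, 0 below 100, 6 at 100 or above and 2 with trends removed. Acute-phase genes (0) gave 2 at 100 or above. Interferon genes (1) gave 3 at 100 or above and 0 below 100, with DESeq2 size factors, the offset, trends removed or coding transcripts only. Without single libraries these lists ran, in this order, from 0 to 2, 0 to 3, 1 to 4, 9 to 15, 0 to 3, 1 to 2, 0 to 1 and 0 to 2. Pairs past the threshold (1) fell to 0 without the 2 libraries farthest from the median, which also leaves fewer libraries. The causes were not tested. No paired analysis was possible because the groups share no replicate number in the labels. Within a range the title numbers of the groups do not interleave, so number order and transplant cannot be told apart.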
